A study of Homo sapiens with 12 samples.

Results

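The 150 genes described here were higher under the label ERK5-ko and lower under the label MEK5DD than in the parental controls of MDA-MB-231 cells, while in Hs-578T cells ERK5-ko and parental levels differed little. They were selected on these measured values, out of 13737 protein-coding genes that reached 0.5 RPKM in 2 or more of the 12 libraries. RPKM is the number of reads on a gene, scaled to the length of its gene model and to the depth of the library. For each group, the mean of log2(RPKM + 0.5) over its 2 libraries was taken. A gene entered if the ERK5-ko mean was at least 0.585 above and the MEK5DD mean at least 0.585 below the parental mean in MDA-MB-231, and if the ERK5-ko and parental means of Hs-578T differed by less than 0.585. Of the tested genes, 392 met the first condition, 1938 the second and 239 both, and 150 of these met the Hs-578T condition as well. The 3 differences therefore describe the choice and were not tested.

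MDA-MB-231 and Hs-578T are established cell lines of triple-negative breast cancer, which lacks the estrogen and progesterone receptors and HER2. Each line gave 2 parental controls, 2 libraries labelled ERK5-ko and 2 labelled MEK5DD. Passages were 29 and 30, 7 and 8, and 10 and 11 for these groups of MDA-MB-231 and 83 and 84, 8 and 9, and 8 and 9 for those of Hs-578T, so that passage and genotype cannot be told apart in any comparison with parental controls. The ERK5-ko cells were made with CRISPR/Cas9 guides against MAPK7, the gene of ERK5, and the MDA-MB-231 ERK5-ko line is 1 surviving clone. For the cells that gave both ERK5-ko lines, the study states higher passages than those of the ERK5-ko libraries. Passage numbers of ERK5-ko libraries were thus not counted from the same start as those of parental controls. How the MEK5DD cells were made is not given in the sources used here, and neither is whether replicates came from separate cultures, so p values measure the spread between these samples only. ERK5 is a mitogen-activated protein kinase that carries a transcription activation domain, MEK5 is the kinase that activates it, and MEK5DD is a MEK5 mutant whose activity is constitutive.

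MAPK7 RNA was 13.3 and 14.3 RPKM in MDA-MB-231 parental controls and 16.3 and 17.8 under the label ERK5-ko. It was therefore not lower under that label. In Hs-578T, MAPK7 RNA was not lower under the label ERK5-ko either. The study found far less ERK5 protein by Western blot in the ERK5-ko cells of both lines, and RNA level does not measure that loss. The study also names qRT-PCR, which reads RNA, as a check of the knockout in its clones. No MAPK7 value from that check is given in the sources used here. The RNA values of these libraries show no loss that such a check could rest on, and the reason was not tested. ERK5-ko is used below as the label of these libraries. MAP2K5, the gene of MEK5, was at 12.9 and 13.6 RPKM in MDA-MB-231 parental controls and at 188 and 184 in MEK5DD libraries, whereas the Hs-578T values were 14.6 and 16.9 for controls and 21.3 and 23.8 for MEK5DD. Library totals lay between 20248162 and 27791195 reads. Of 8 luminal breast markers, 3 were under 0.5 RPKM in every MDA-MB-231 library (ESR1, PGR and FOXA1). Of 6 mesenchymal markers, 1 was counted under that level in each MDA-MB-231 group, not necessarily the same one. CDH2 ran from 0.23 to 0.524 RPKM over the MDA-MB-231 libraries and SPARC from 0.16 to 3.09. The mesenchymal markers summed to between 2357 and 2511 RPKM in MDA-MB-231 parental controls, 2315 and 2387 under the label ERK5-ko and 4341 and 4437 in MEK5DD libraries. The luminal markers summed to between 1556 and 1661 RPKM in MDA-MB-231 parental controls, 2615 and 2626 under the label ERK5-ko and 1174 and 1222 in MEK5DD libraries. The luminal sums stand in the same order as the members, and the mesenchymal sum was highest in the MEK5DD libraries, where the members were lowest. Of the 8 luminal markers, KRT19 is itself a member. Over the MDA-MB-231 libraries, KRT8 ran from 595 to 1146 RPKM, KRT18 from 328 to 692 and KRT19 from 236 to 776.5. GATA3 reached at most 7.84 and EPCAM 25.75, so the luminal sums describe mainly the keratins. VIM, at 1598 to 3492 RPKM, and AXL, at 661 to 822, make up most of the mesenchymal sum. In Hs-578T, luminal markers summed to between 195 and 269.9 RPKM in parental controls, 587.7 and 635.8 under ERK5-ko and 233.8 and 259.7 in MEK5DD libraries. Mesenchymal markers there summed to between 14100 and 15350, 13880 and 14040, and 19920 and 19950 RPKM, in the same order of groups. The luminal sum was thus higher under ERK5-ko in Hs-578T as well, where members were chosen to differ little. The part of the markers in the members' values was not tested. Markers of leukocytes, of endothelium and of adipocytes each summed to at most 8.99 RPKM in any MDA-MB-231 library.

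Promoter sequence is shown for the 3 members with the widest separation in MDA-MB-231 that have an entry in the RefSeq promoter table (GRCh38.p14), so that the motif counts below can be read on actual sequence. The members are EREG (epiregulin, a ligand of the EGF receptor), PTGFRN (a membrane protein that inhibits prostaglandin F receptor binding) and CA9 (carbonic anhydrase 9, a membrane enzyme known as a hypoxia target). Each run lies on the plus strand before the RefSeq and GENCODE starts, at chr4:74364895-74365142 for EREG, chr1:116909666-116909915 for PTGFRN and chr9:35673678-35673855 for CA9. Capitals mark matches, on either strand, to the TATA box, the CCAAT box, the GC box, the TEAD motif and the ZEB/SNAI box, whose letters are given with the motif counts.
EREG: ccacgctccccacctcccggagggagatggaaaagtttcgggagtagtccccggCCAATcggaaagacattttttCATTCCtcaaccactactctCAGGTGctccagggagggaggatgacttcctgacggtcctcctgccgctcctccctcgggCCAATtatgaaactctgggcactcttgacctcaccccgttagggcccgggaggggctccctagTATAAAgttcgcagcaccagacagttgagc
PTGFRN: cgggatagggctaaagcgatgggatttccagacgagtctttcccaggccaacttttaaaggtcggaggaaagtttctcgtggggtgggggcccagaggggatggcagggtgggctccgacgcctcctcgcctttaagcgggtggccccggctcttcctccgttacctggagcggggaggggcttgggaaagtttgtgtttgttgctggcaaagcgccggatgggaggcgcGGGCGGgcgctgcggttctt
CA9: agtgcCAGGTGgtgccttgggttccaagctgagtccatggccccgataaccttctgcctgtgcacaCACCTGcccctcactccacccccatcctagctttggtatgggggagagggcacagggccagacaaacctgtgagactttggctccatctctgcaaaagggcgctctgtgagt
The EREG run holds a TATA box whose first base lies 30 bases before its end, 2 CCAAT boxes and 1 match each to the TEAD motif and the ZEB/SNAI box. PTGFRN holds 1 GC box, and CA9 holds 2 ZEB/SNAI boxes. The 72 bases between the GENCODE and RefSeq starts of CA9 were searched but are not printed, and they hold 1 CCAAT box and the end of 1 AP-1 match.

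In MDA-MB-231 the members had a median level of 7.46 RPKM in parental controls, 15.2 under the label ERK5-ko and 1.28 in MEK5DD libraries. In all 150, both MEK5DD libraries lay below both parental controls and both libraries labelled ERK5-ko lay above them, an order held by 17.1% of all tested genes. As these are the contrasts that chose the members, nothing is read from this. The log2 difference of ERK5-ko from parental ran from 0.59 to 2.57 with a median of 0.81, and that of MEK5DD ran from -0.59 to -4.77 with a median of -1.44. The MEK5DD difference was the larger in size in 125 members and the ERK5-ko difference in 25. Both were of size 1 or more in 40 members. The members nearest inside a threshold were NREP, with a MEK5DD difference of -0.587, and HMHA1 and MAPRE3, both with an ERK5-ko difference of 0.591, while NTNG2, RP11-514O12.4 and ACSS2 stood nearest outside at 0.584, 0.582 and 0.582.

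**Figure D1:**
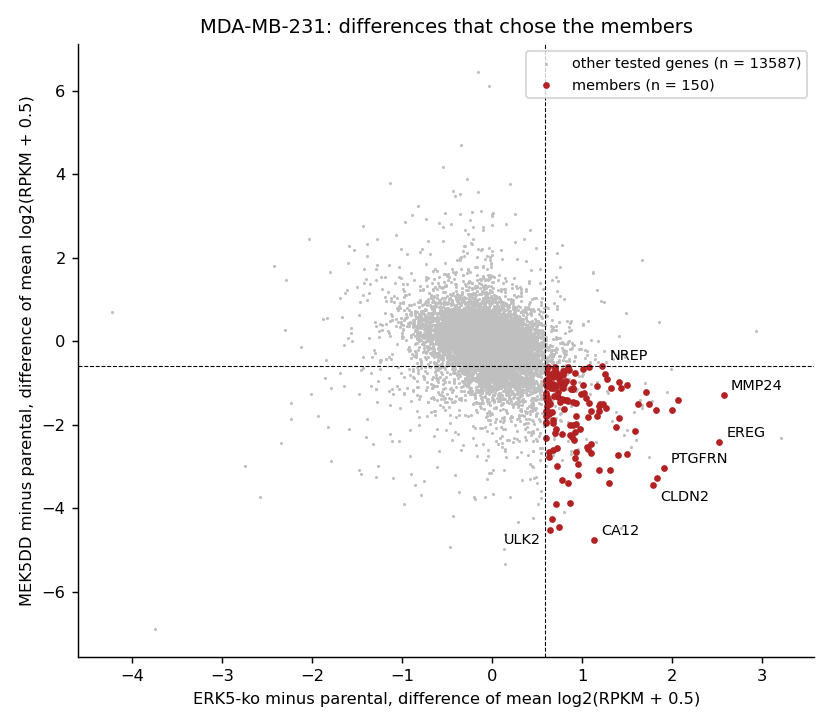
Difference from parental controls in MDA-MB-231 of libraries labelled ERK5-ko (horizontal axis) and MEK5DD (vertical axis), as differences of mean log2(RPKM + 0.5), with 1 point per tested gene and dashed lines at the thresholds, 0.585 from 0 in size. The 150 members (red) lie in the lower right corner by construction, with EREG and MMP24 farthest to the right and CA12 and ULK2 among the lowest, and the grey points in that corner missed the Hs-578T condition.

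EREG gave the widest separation in both directions at once. Its RPKM was 8.14 and 8.42 in parental controls, 49.2 and 50.8 under the label ERK5-ko and 1.19 and 1.08 in MEK5DD libraries, so that the ERK5-ko mean was 6.03 times the parental mean and the parental mean 7.29 times the MEK5DD mean. No read fell on EREG in any Hs-578T library. PTGFRN had 7.76 and 7.13 RPKM in parental controls, 31.2 and 27.4 under ERK5-ko and 0.435 and 0.497 under MEK5DD. The same gene was at 234 and 330 RPKM in Hs-578T parental controls, far above any MDA-MB-231 library. CA9 had 4.54 and 4.58 RPKM in parental controls and 16.8 and 18.2 under ERK5-ko. At most 1 read fell on CA9 in a MEK5DD library, which against 3 reads per library makes it at least 39.1-fold lower there than in parental controls, and part of CA9 overlaps ARHGEF39 on the opposite strand.

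CLDN2, a claudin that forms cation pores in tight junctions, was at 13.8 and 12.5 RPKM in parental controls, 47.0 and 46.0 under ERK5-ko and 0.705 and 0.779 under MEK5DD. For CALCR, the calcitonin receptor, the values were 1.51 and 1.72, then 8.36 and 7.43, then 0.172 and 0.166. Both are close to silent in Hs-578T, where CLDN2 had at most 1 read in a library and CALCR none. CNGA1, a cyclic nucleotide-gated channel subunit, had 4.04 and 4.46 RPKM in parental controls, 14.7 and 12.8 under ERK5-ko and 0.703 and 0.447 under MEK5DD, and it lies wholly within NIPAL1, also a member, on the opposite strand. Whether reads were counted by strand is not given in the sources used here, so the reads of this pair, like those of MMP24 within its antisense gene and of CLDN2 within MORC4, are uncertain. Of the 150 members, 69 overlap another listed gene.

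Among the members that were already well expressed, TFPI2, a secreted inhibitor of serine proteases, was at 46.9 and 46.3 RPKM in parental controls, 114 and 136 under ERK5-ko and 13.6 and 11.7 under MEK5DD. The values of NEDD9, a scaffold protein of focal adhesions, were 24.4 and 24.6, then 65.8 and 64.7, then 3.19 and 3.41. In both genes the 2 libraries of a group lay much closer to each other than to another group. RPS6KA2, a ribosomal S6 kinase downstream of ERK1/2, had 24.6 and 22.7 RPKM in parental controls, 60.7 and 63.7 under ERK5-ko and 4.95 and 5.71 under MEK5DD. TPD52L1, a tumor protein D52 family member, had 9.70 and 9.97, then 35.1 and 36.6, then 3.41 and 2.31. FAM134B, a receptor for the autophagy of endoplasmic reticulum, had 8.44 and 8.25, then 20.9 and 21.8, then 0.685 and 0.411. The 2 transporters of this group were low in MEK5DD libraries. SLC47A1, a proton-coupled exporter of organic cations, was at 3.72 and 4.35 RPKM in parental controls, 13.3 and 11.3 under ERK5-ko and 0.292 and 0.101 under MEK5DD, and SLC22A23, an organic ion transporter family member, was at 1.03 and 1.16, 5.23 and 4.41, and 0.0376 and 0.0816.

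**Figure D2:**
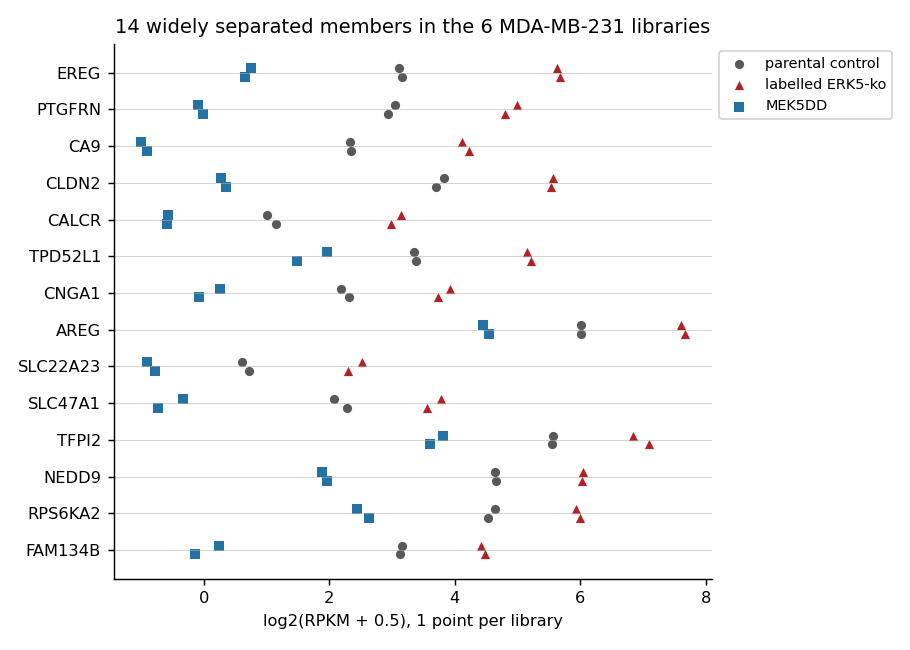
Expression of 14 of the 15 members with the widest separation and a mean of at least 1 RPKM over the 6 MDA-MB-231 libraries, as log2(RPKM + 0.5) on the horizontal axis with 1 point per library. In each gene the 2 MEK5DD points (blue squares) lie lowest, the 2 parental points (grey circles) between and the 2 points labelled ERK5-ko (red triangles) highest, which is the order that the choice asks of the group means.

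The MEK5DD difference covered a wider range among members than the ERK5-ko difference. CA12, a membrane carbonic anhydrase like CA9, had 40.8 and 40.8 RPKM in parental controls and 83.9 and 96.3 under ERK5-ko, but 0.840 and 1.20 under MEK5DD, a parental mean 40.0 times the MEK5DD mean. ULK2, a kinase that starts autophagy, showed 24.8 and 24.9, then 41.5 and 36.8, then 0.577 and 0.637, so that a 1.58-fold difference on one side stood against a 40.9-fold difference on the other. Beyond the genes named by rule, and picked after their values were seen, CEMIP (a hyaluronan-degrading protein) and CDH11 (a mesenchymal cadherin) gave MEK5DD differences of -4.45 and -4.25 on the log2 scale with ERK5-ko differences of 0.74 and 0.67. In 13 members both MEK5DD libraries had 3 reads or fewer, and in 49 their mean was under 0.5 RPKM. MMP24, a membrane-type matrix metalloproteinase, was the reverse, with 1.26 and 1.17 RPKM in parental controls, 11 and 8.48 under ERK5-ko and 0.179 and 0.213 under MEK5DD.

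The members were read against 50 lists of genes by pathway or family, which hold 16.9% of the tested genes and 30.7% of the members, 46 genes. The lists were drawn up with earlier results of these data known and no enrichment was tested. Members make up 1.09% of all tested genes. Receptor tyrosine kinases and growth factors held 6 members among 56 tested genes (10.7%), which were EREG, AREG, PDGFB, ERBB3, NRG2 and BTC. AREG (amphiregulin, another ligand of the EGF receptor) was at 64.0 and 63.9 RPKM in parental controls, 194 and 202 under ERK5-ko and 21.3 and 22.9 under MEK5DD. PDGFB, a chain of platelet-derived growth factor, was at 2.15 and 1.99, then 7.39 and 6.20, then 0.728 and 0.733. BTC (betacellulin, also an EGF receptor ligand) and ERBB3 (a receptor of this family), named after their values were seen, were less separated, with ERK5-ko differences of 0.84 and 0.90 and MEK5DD differences of -0.62 and -0.97 on the log2 scale. Over this whole list, 7 genes were called higher and 3 lower in Hs-578T MEK5DD libraries than in their parental controls, by the test described below.

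Glycolysis and hypoxia genes held 4 members among 42 (9.52%), CA9, CA12, ALDOC and MXI1, with 1 gene of the list called higher and 1 lower in Hs-578T MEK5DD. TGF-beta and BMP genes also held 4, among 43 (9.30%), BMP4, GDF15, LTBP3 and FSTL3, with 6 and 1 called. BMP4, a bone morphogenetic protein ligand, was at 210 and 209 RPKM in parental controls, 407 and 442 under ERK5-ko and 86.5 and 90.2 under MEK5DD. NRF2 targets held 2 among 28, TXNRD1 and ME1. TXNRD1 (cytosolic thioredoxin reductase) was among the most abundant members, at 437 and 411 RPKM in parental controls, 885 and 799 under ERK5-ko and 172 and 177 under MEK5DD. Solute carriers held 5 among 211 (2.37%) and zinc finger ZNF genes 1 among 501 (0.2%). The remaining members of the lists that the naming rule reached were low to moderate in level. ADGRF1, an adhesion G protein-coupled receptor, had 18.6 and 18.5 RPKM in parental controls, 44.1 and 44.3 under ERK5-ko and 6.27 and 6.13 under MEK5DD. PDE5A, a cGMP phosphodiesterase, had 3.20 and 2.71, then 9.82 and 7.63, then 1.25 and 1.24. VTN (vitronectin) had 0.673 and 0.665 RPKM in parental controls, 3.52 and 3.11 under ERK5-ko and no read under MEK5DD, at least 6.22-fold lower than in parental controls against 3 reads per library, and it lies wholly within SARM1 on the opposite strand.

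No member belonged to 21 of the lists. These include the ERK5 cascade with its known targets (0 of 17 tested), ERK1/2 feedback genes (0 of 18), collagens (0 of 29) and integrins (0 of 21). With members at 1.09% of all tested genes, lists this short can hold none without meaning, and nothing is read from these counts. The list of epithelial and EMT genes held 1 member of 36, KRT19, a keratin of simple epithelia. That list does not hold every epithelial gene, and the tight junction gene CLDN2, for example, is a member outside it. The count therefore does not say how many members are epithelial genes. KRT19 was at 499 and 506 RPKM in parental controls, 748 and 776 under ERK5-ko and 236 and 252 under MEK5DD, and at most 0.395 in Hs-578T. Reads of KRT19, of HLA-B (1 member of 29 antigen presentation genes) and of TMSB4X (the most abundant member, with a mean of 3068 RPKM in MDA-MB-231 parental controls) can be shared with close copies, so that their values are uncertain.

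The members differed widely between the lines. An RPKM of at least 0.5 in 2 or more Hs-578T libraries was reached by 89 members (59.3%), against 94.0% of all tested genes, and 6 had no read in any Hs-578T library (EREG, CALCR, PON3, TMEM45B, RHOD and SPINK4). A gene that is not expressed in Hs-578T meets the Hs-578T condition without more, so this share follows in part from the choice. The 61 members under that level had a median of 3.64 RPKM in MDA-MB-231 parental controls and the 89 above it 11.2. The median ERK5-ko difference was 0.86 in the former and 0.77 in the latter, and the median MEK5DD difference -1.52 and -1.33 on the log2 scale. Between parental controls, 102 members were higher in MDA-MB-231 and the other 48 in Hs-578T, with 32 and 7 of them apart by 3.0 or more on the log2 scale. These counts were not made over all tested genes. The conditions need expression in MDA-MB-231 but none in Hs-578T, so the counts also follow in part from the choice. AREG and KRT19 stood at the MDA-MB-231 end and SLC12A8, PTGFRN and PDE5A at the other. PDE5A had a mean of 42.1 RPKM in Hs-578T parental controls and 2.95 in those of MDA-MB-231.

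**Figure D3:**
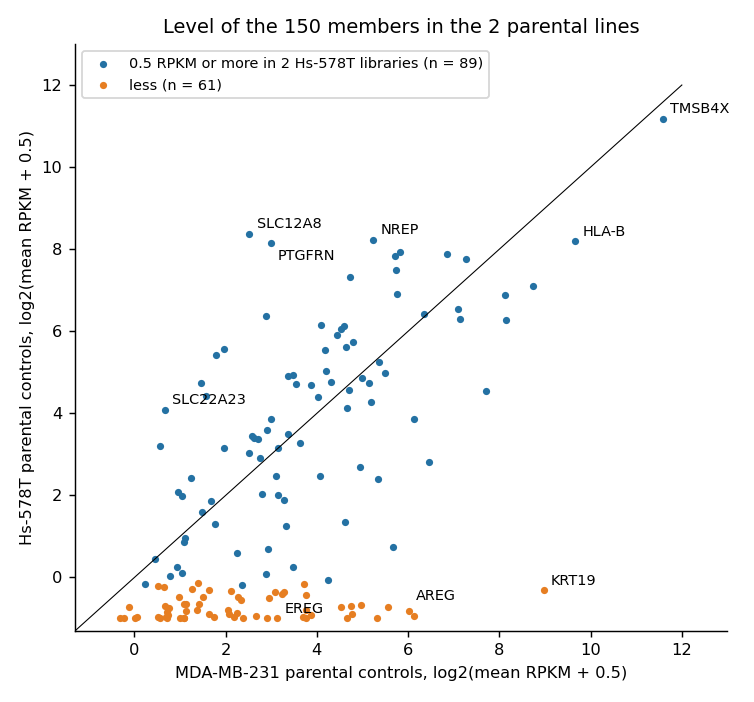
Mean level of each member in MDA-MB-231 (horizontal axis) and Hs-578T (vertical axis) parental controls, as log2(mean RPKM + 0.5), with the line of equal levels. The 61 members in orange, EREG, AREG and KRT19 among them, lie along the bottom, while PTGFRN, SLC12A8 and SLC22A23 lie well above the line.

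Only the comparison of Hs-578T MEK5DD libraries with their parental controls was not used in the choice, although these controls also enter the Hs-578T condition. It was tested with limma over all 12 libraries with Benjamini-Hochberg adjustment over the 13737 tested genes. Calls needed an adjusted p under 0.05, with a ratio to parental controls of more than 1.5 for higher and less than 0.5 for lower. Of the 150 members, 7 were called higher (4.67%, against 2.9% of all tested genes) and 3 lower (2%, against 1.49%), and 140 were not called. In a fit of the 6 Hs-578T libraries alone, 3 were higher (2%, against 1.75%), and with no fold threshold 17 were lower (11.3%, against 17% of all tested genes). The median log2 difference was 0.00 over the members and -0.08 over all tested genes. Of the 89 members expressed in Hs-578T, 41 gave a positive and 48 a negative difference, with a median of -0.04. Of the members 59.3% reached 0.5 RPKM in 2 or more Hs-578T libraries, against 94.0% of all tested genes, and a near-silent gene can hardly be called. The shares called and the medians of members and of all tested genes therefore rest on unlike sets. No share or median was taken over all tested genes expressed in Hs-578T, and no lean in either direction is read from these values. MAP2K5 RNA differed by only 0.50 on the log2 scale in this comparison (adjusted p = 0.00492, limma), against 3.77 in MDA-MB-231. The libraries within the Hs-578T parental and MEK5DD pairs also differed more from each other than those of other groups, with a mean chi-square per gene of 35.3 and 46.2 against 3.10 to 9.97, and the part of either in these counts was not tested.

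FAM198B, a Golgi-associated membrane protein, gave the largest difference in Hs-578T, opposite to the MDA-MB-231 direction that chose it. Its RPKM was 3.59 and 3.36 in the parental pair of this line and 8.67 and 11 in its MEK5DD pair, and the log2 difference was 1.37 (standard error 0.125, adjusted p = 3.16e-05, limma). Its MDA-MB-231 values were 1.63 and 1.51 in parental controls, 4.14 and 3.6 under ERK5-ko and 0.234 and 0.234 under MEK5DD. IL32, a proinflammatory cytokine, rose from 51.4 and 41.0 to 93.6 and 77.4 in Hs-578T (0.88, adjusted p = 0.00212, limma), whereas its MDA-MB-231 values were 16.7 and 18.7, then 32.5 and 42.4, then 2.53 and 2.71. ULK2 rose from 15.9 and 18.1 to 26 and 27.8 (0.65, adjusted p = 0.00116, limma). ULK2 was also no longer past the fold without parental control replicate 1 (0.55). In these 3 genes the MEK5DD pair did not overlap the parental pair in either line, with opposite directions.

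The other 4 genes called higher were not called when the fit was restricted to the 6 Hs-578T libraries, where their adjusted p (limma) lay between 0.0602 and 0.133. MOSPD1 was at 20.9 and 16.7 RPKM in parental controls and then at 35.4 and 27 in MEK5DD libraries (0.71, adjusted p = 0.00318, limma), and FAM134B at 3.44 and 3.55 and then 5.20 and 6.39 (0.65, adjusted p = 0.0115). FBXO6, a ubiquitin ligase subunit that binds glycoproteins, was at 3.29 and 2.95 and then 5.81 and 4.20 (0.59, adjusted p = 0.0265, limma). TFPI2 rose from 0.139 and 0.0766 to 0.745 and 0.387 RPKM (0.79, adjusted p = 0.00616, limma). That rests on at most 19 reads in a library, and the level is far under that of MDA-MB-231. Each of these 4 also depended on single libraries, as MOSPD1 and FBXO6 lost the call without parental control replicate 2 (0.55 and 0.53) or MEK5DD replicate 1 (0.52 and 0.38), TFPI2 without MEK5DD replicate 1 (0.55) and FAM134B without MEK5DD replicate 2 (0.51). With a pseudocount of 1, TFPI2 (0.49) and FBXO6 (0.53) were under the fold as well.

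The 3 genes called lower moved in the MEK5DD direction of MDA-MB-231. OAS1, an interferon-induced enzyme that senses double-stranded RNA, fell from 2.69 and 2.37 to 1.04 and 0.557 RPKM in Hs-578T (-1.25, adjusted p = 0.000528, limma), and in MDA-MB-231 it was at 2.63 and 1.96, 4.59 and 4.47, and 0.183 and 0.190. NRG2, neuregulin 2, fell from 0.872 and 0.873 to 0.0458 and 0.226 (-1.12, adjusted p = 0.000695, limma). That rests on at most 43 reads in a Hs-578T library. In MDA-MB-231, NRG2 was at 1.07 and 0.667 in parental controls, 1.75 and 1.58 under ERK5-ko and 0.347 and 0.251 under MEK5DD. CA12 fell from 34.6 and 40.5 to 17.4 and 18.5 (-1.04, adjusted p = 0.000229, limma), a far smaller difference than the one that chose it in MDA-MB-231. Each stood under the fold without 1 library, CA12 without parental control replicate 2 (-0.93), NRG2 without MEK5DD replicate 1 (-0.92) and OAS1 without MEK5DD replicate 2 (-0.97), and CA12 also under both other scalings (-0.96 and -0.94). With a pseudocount of 1, OAS1 (-0.99) and NRG2 (-0.73) were under the fold too. Of the members with the widest separation in MDA-MB-231, PTGFRN gave -0.42 (adjusted p = 0.0994) and TPD52L1 0.27 (adjusted p = 0.258) in this comparison, and neither was called. CA9, CLDN2, CNGA1, AREG and SLC47A1 had at most 5 reads in any Hs-578T library, where a difference was not detectable at this depth.

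**Figure D4:**
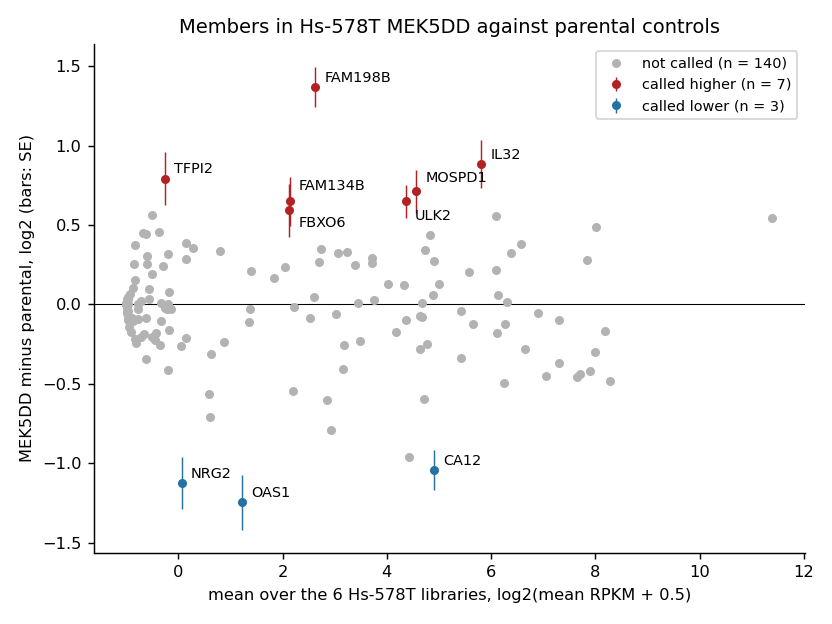
Log2 difference of Hs-578T MEK5DD libraries from parental controls (vertical axis) against the mean level over the 6 Hs-578T libraries (horizontal axis, log2(mean RPKM + 0.5)), with 1 point per member and standard errors on the called genes. The 7 genes called higher (red) and the 3 called lower (blue) are named, and the 140 others (grey) scatter around 0.

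Members were found on most chromosomes, with 18 on chromosome 1 as the highest count and 0 on chromosomes 13 and 21. On chromosome 20, 11 of 365 tested genes were members (3.01%), against 1.09% over all chromosomes. These were PLCB4, ACSS1, NOL4L, PROCR, MMP24, WFDC2, WFDC3, PARD6B, BCAS4, ATP9A and EEF1A2, which were named after their position was seen. Copy number was not measured, and its part was not tested.

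**Figure D5:**
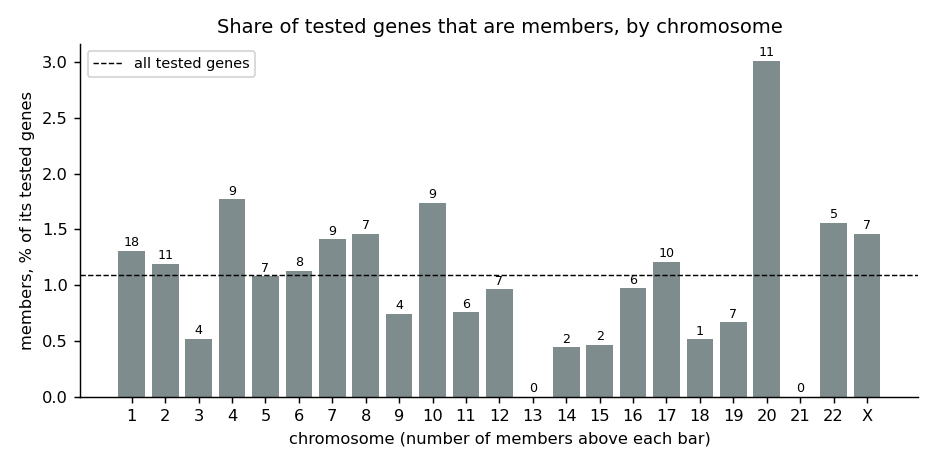
Members as a percentage of the tested genes of each chromosome, with the number of members above each bar and the percentage over all tested genes as a dashed line. Chromosome 20 has the tallest bar, with 11 members and 3.01%.

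A total of 54 members lay within 1 Mb of another member, in 30 neighbouring pairs. Such pairs were not counted for other sets of tested genes, so no clustering of the members is read from these counts. Some of the 30 pairs had no other tested gene that started between their 2 members. The EGF receptor ligand genes EREG (chr4:74365143-74388751), AREG (chr4:74445134-74455009) and BTC (chr4:74744759-74794686) followed each other on chromosome 4 in this way. On chromosome 7, CALCR (chr7:93424487-93574730), TFPI2 (chr7:93885397-93890991) and GNG11 (chr7:93921699-93928610), a G protein gamma subunit gene, did so as well. Within a run the sizes differed, with ERK5-ko differences of 2.52, 1.62 and 0.84 for EREG, AREG and BTC and of 1.99, 1.41 and 0.61 for CALCR, TFPI2 and GNG11 on the log2 scale. PROCR, the endothelial protein C receptor, and MMP24 were neighbours on chromosome 20.

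MAPK7 itself (chr17:19377721-19383544), the gene that the guides targeted, has 4 members within 1 Mb, out of 15 tested genes other than MAPK7. Named after their position was seen, they were B9D1 (a ciliary transition zone protein), SLC47A1, ALDH3A2 (fatty aldehyde dehydrogenase) and ULK2. All 4 genes that met the ERK5-ko condition there were members, 4 of 15 against 2.85% of all tested genes, and 7 of the 15 met the MEK5DD condition, against 14.1%. The median ERK5-ko difference of the 15 genes was 0.11 on the log2 scale. B9D1 overlaps MAPK7 by 462 bases on the opposite strand and was at 9.74 and 11.5 RPKM in parental controls, 16 and 18.9 under ERK5-ko and 5.77 and 7.66 under MEK5DD. ALDH3A2 lies 264.6 kb away and was at 45.1 and 43.5, then 79.5 and 73.4, then 26.5 and 23.4. SLC47A1 is 111.8 kb and ULK2 387.3 kb from MAPK7. The part of this position in their values was not tested.

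An entry in the RefSeq promoter table was found for 112 of the 150 members and for 10307 of the tested genes, and the 250 bases before the start were searched on both strands. The ZEB/SNAI box CACCTG occurred in 34 of the 112 members (30.4%) and in 15.6% of all tested promoters. The TEAD motif GGAATG occurred in 19 (17.0%, against 9.70%), AP-1 (TGANTCA with C or G at N) in 5 (4.46%, against 2.59%) and the cAMP response element TGACGTCA in 5 (4.46%, against 2.78%). The TATA box TATAAA was found in 9 (8.04%, against 5.43%), among them EREG and AREG, and the GC box GGGCGG in 80 (71.4%, against 66.9%). Less frequent among members were CCAAT (25, or 22.3%, against 34.9%), the E-box CACGTG (4, or 3.57%, against 8.87%) and the ETS motif CCGGAAGT (3, or 2.68%, against 6.96%). By name, MEF2 motifs were in 3 members (2.68%, against 1.42%), SRF motifs in 2 (1.79%, against 1.01%) and NF-kB motifs in 13 (11.6%, against 7.89%). The median GC content was 65.8% in members and 64.8% in all tested promoters. A match is a run of letters and not a bound site, and these shares were not tested. The median length of the gene model was 1519 bases in members and 1572 in all tested genes.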

How the data were processed

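RNA was sequenced from 12 libraries, 2 in each of 6 groups, which were formed by cell line and label. Per the labels, cells were harvested at 70% confluence and a stranded mRNA kit was used. The authors deposited RPKM values, reads scaled to gene model length and library depth, for 32152 genes. The submitters' processing notes name bcl2fastq, Trimmomatic 0.32, TopHat2 2.1.1, R 3.3.1, DESeq2 1.12.4 and GRCh38. The counting tool, its strand setting and the annotation are not given in the sources used here.

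Library totals were recovered from the steps of the RPKM values, which gave whole reads (tolerance 0.0001) for all 32152 genes. RPKM cannot be tested as counts, so log2(RPKM + 0.5) was fitted as 6 group means with limma 3.58.1 in R 4.3.3, leaving 6 residual degrees of freedom, with limma's trend option, after a test on simulated data. A difference on this scale understates that of genes with low RPKM. Folds in MDA-MB-231 are ratios of mean RPKM. For groups of 2 libraries, an exact permutation test cannot give a two-sided p below 0.333. A gene with 3 reads or fewer was treated as at the floor, which covers counting error only. No pair of libraries was identical.

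The members and lists were chosen with earlier results of these data known. Genes named are the 15 members with the largest smaller difference among those with a mean of at least 1 RPKM in MDA-MB-231, the first 15 members of a list by the same measure, members called in Hs-578T, 3 on each side of a threshold, and MAPK7 and MAP2K5, and 1 of the first 15 is not reported here. Alternatives changed the pseudocount, filter, scaling, libraries, gene types, thresholds, block and test. The remaining software was Python 3.11.15 with pandas 2.3.3, numpy 2.4.6 and matplotlib 3.10.9.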

Additional observations from a re-analysis of the deposited data

Results flagged for a closer look

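The 7 members called higher in Hs-578T MEK5DD libraries were taken for a closer look because both of their MEK5DD libraries lay above both parental controls in Hs-578T and below both in MDA-MB-231. The MDA-MB-231 part holds in all 150 members. In 75 of the 150, both Hs-578T MEK5DD libraries lay outside the range of the parental pair, in either direction, so such separation is not particular to these 7. That count was not made over all tested genes. Their log2 differences in Hs-578T were 1.37 for FAM198B, 0.88 for IL32, 0.79 for TFPI2, 0.71 for MOSPD1, 0.65 for FAM134B, 0.65 for ULK2 and 0.59 for FBXO6. The difference between the lines was not tested, because the MDA-MB-231 side chose the genes. MAP2K5 RNA differed by 3.77 in MDA-MB-231 and by 0.50 in Hs-578T on the log2 scale. Groups of 2 libraries are too small for a check of single libraries that stand apart.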

How the results depend on the processing

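With the replicate number as a block, 7 members were called higher and 3 lower in Hs-578T MEK5DD libraries, as without it, and it changed no call of a member. Same-numbered libraries deviated together, with correlations of 0.107 to 0.541 for the 6 within-line pairs of groups, the highest between Hs-578T parental and MEK5DD libraries, but the labels do not say that a number marks a shared batch. The count called higher was 14 with a pseudocount of 0.1 (9.33%, against 3.36% of all tested genes), 3 with only the Hs-578T libraries (2%, against 1.75%), 11 with limma voom on recovered reads (7.33%, against 3.3%) and 18 with no fold threshold (12%, against 6.44%). The count called lower was 1 with a pseudocount of 1 (0.667%, against 0.961%), 5 with voom (3.33%, against 3.33%), 17 with no fold threshold (11.3%, against 17%) and 8 at a fold below 1/1.5 (5.33%, against 6.46%). The members' share called lower was thus above that of all genes at the reported thresholds and below it in 3 of these 4 settings. In every setting the members held a larger share of genes near-silent in Hs-578T than all tested genes did, so these shares rest on unlike sets. Without 1 library at a time, 6 to 10 members were called higher and 2 to 3 lower. Median-ratio scaling and quantile normalization gave 10 higher and 2 lower, and shifted the median of all genes from -0.08 to 0.00. Over all tested genes, 398 were called higher and 204 lower, against 537 and 170 with median-ratio scaling, 586 and 168 with quantile normalization, 462 and 411 with a pseudocount of 0.1 and 453 and 458 with voom. Of 160 combinations of the 10 called genes with an alternative, 140 kept the call, 20 lost it in the same direction and 0 turned. The number of genes meeting the conditions lay between 128 and 178 over the settings, and leaving out 1 library gave 144 to 155, of which 130 to 148 were among the 150. A total of 57 members lay within 0.1 on the log2 scale of a threshold. The order of libraries in MDA-MB-231 was kept in 150 members under both scalings.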

Other observations

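The same 3 conditions were applied to the 3120 genes of other types that passed the filter on low values, and 21 met them (0.673%), of which 8 are listed as antisense RNAs, 7 as lincRNAs, 2 as miRNAs and 2 as processed pseudogenes. LINC01411 (chr5:174336295-174532457) gave the widest separation, with 6.57 and 7.56 RPKM for MDA-MB-231 parental controls, 16.9 and 14.1 under the label ERK5-ko and 1.24 and 0.842 in MEK5DD libraries. CTD-2263F21.1, an antisense gene that overlaps EGFLAM, followed with 5.82 and 8.63, then 14.1 and 17.1, then 2.21 and 3.19. MMP24-AS1, which overlaps the member MMP24 on the opposite strand, was at 312 and 333 RPKM in parental controls, 586 and 623 under ERK5-ko and 197 and 201 under MEK5DD, far above MMP24 itself. The entry AL354933.1, listed as a miRNA, lies within the pseudogene KRT19P1, a copy of the member KRT19, and how reads were assigned among them is not given in the sources used here. LINC01411 overlaps a pseudogene on its own strand, and the strand setting of the counts was not known for any of them.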
